A study of Mus musculus with 36 samples.

Results

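Imprinted growth genes are genes that are read mainly from the copy inherited from a single parent and that act on the growth of the embryo and young animal. The members examined here were H19, Igf2, Dlk1, Meg3, Peg3, Mest, Plagl1, Cdkn1c, Grb10 and Igf2r, which is 10 of the 52636 genes in the count table. They were found as the rows whose Ensembl identifier carries these symbols in GENCODE M21 (genome build GRCm38), and each symbol matched 1 row. The members were chosen with their levels in these cell types already known, so their differences between cell types are given as a description, with no p-value. Counts of members past the threshold of the fit of all genes stand only beside the same share of all genes.

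The cells came from juvenile S100GFP;NG2DsRed mice, in which GFP is driven by the promoter of S100b and dsRed by the promoter of Cspg4, the gene of NG2. Diaphragm, pectoralis, forelimb and hindlimb muscles were dissociated and 3 populations were sorted, namely NG2DsRed+/S100GFP+ cells, which the study takes as perisynaptic Schwann cells (PSCs, the glia that cover the neuromuscular junction), single-labeled S100GFP+ cells and single-labeled NG2DsRed+ cells. All 3 populations came from the same double transgenic line, and no group without the transgenes was included. The mice were juvenile, from postnatal day 15. The last day of the labelled age range goes up by 1 from library to library, from 21 until it stays at 46, and disagrees with the single juvenile age range of the study's methods, so the labelled ages were not used. Each library held the cells sorted from 1 mouse, as the study's methods state, and 27 of the 36 labelled libraries were in the table, 9 of PSCs, 8 of S100GFP+ cells and 10 of NG2DsRed+ cells. The design text counts 7 S100GFP+ libraries, so the 8 used here may include 1 that the study left out, and which is not stated in the sources at hand.

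The libraries held between 5221655 and 9592875 counts on genes. Cspg4 had 689 ± 132 CPM (counts per 1000000 counts, SD, n = 9) in PSCs, 71.0 ± 42.3 (n = 8) in S100GFP+ cells and 665 ± 138 (n = 10) in NG2DsRed+ cells, and S100b had 255 ± 198, 29.4 ± 10.1 and 6.54 ± 4.90 CPM. The sum of 7 Schwann lineage markers was between 2004 and 2930 CPM in PSCs but only between 61.0 and 415 CPM in S100GFP+ cells, where Sox10, the lineage's defining transcription factor, had 20.2 CPM against 506 in PSCs. In the S100GFP+ libraries the sum of 8 fibroblast markers was between 16363 and 33975 CPM against 1304 to 3518 in PSCs, and that of 5 macrophage and leukocyte markers between 221 and 1456 CPM against 2.08 to 11.5. The S100GFP+ population is therefore named below by its label and not as Schwann cells. S100GFP+ libraries 14, 17 and 22 stood apart from the other 5, with endothelial marker sums of 542 to 2048 CPM against 28.0 to 98.4. NG2DsRed+ libraries 28 and 35 had the highest fibroblast marker sums of their population, between 14495 and 17804 CPM against 2308 to 9435 in the other 8. Among PSCs, library 31 had a cartilage and tendon marker sum of 4529 CPM against at most 89.9 in the others, and library 18 had the highest sum of muscle fibre markers, 1191 CPM against at most 574.

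Imprinted genes lie in clusters in which a control region carries a methylation mark on the copy from the mother or from the father. Igf2, read from the paternal copy, encodes a secreted growth factor that acts through the IGF1 and insulin receptors, and the neighbouring H19, read from the maternal copy, gives a long noncoding RNA from the same enhancers. Paternally expressed members tend to favour growth and maternally expressed members tend to restrain it. The counts do not separate the parental copies, so every value is the sum of both.

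Several members also carry microRNAs, and their seeds are shown because these short RNAs are a product of the host transcript that the gene counts do not reveal. All 6 mature sequences are from RefSeq (GRCm38.p6) and are written 5′ to 3′ with the seed, bases 2 to 8, in capitals.
mmu-miR-675-5p, in H19, chr7:142577112-142577133, minus strand: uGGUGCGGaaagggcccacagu
mmu-miR-675-3p, in H19, chr7:142577078-142577099, minus strand: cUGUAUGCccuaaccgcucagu
mmu-miR-483-5p, in Igf2, chr7:142654968-142654989, minus strand: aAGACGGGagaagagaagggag
mmu-miR-483-3p, in Igf2, chr7:142654932-142654952, minus strand: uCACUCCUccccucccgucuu
mmu-miR-335-5p, in Mest, chr6:30741314-30741336, plus strand: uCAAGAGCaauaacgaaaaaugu
mmu-miR-335-3p, in Mest, chr6:30741354-30741375, plus strand: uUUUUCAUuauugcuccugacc
No seed was shared among these 6. The Mir675 row had 0 counts over all libraries and the Mir335 and Mir483 rows 6 counts each, but these libraries were made from long RNA and do not measure mature microRNAs.

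Plagl1 and Mest differed from each other in direction, as described below, and a stretch before a transcription start of each is therefore shown, from 250 to 51 bases ahead of it. Capitals mark the hexamer TGCCGC on either strand (GCGGCA on the other), the letters that the imprint-keeping zinc finger protein ZFP57 binds when they are methylated. Methylation was not measured here.
Plagl1, GRCm38.p6, chr10:13090582-13090781, plus strand: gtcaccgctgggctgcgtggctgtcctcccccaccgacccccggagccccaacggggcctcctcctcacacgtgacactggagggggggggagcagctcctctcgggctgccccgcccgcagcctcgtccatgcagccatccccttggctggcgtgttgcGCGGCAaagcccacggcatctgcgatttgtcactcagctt
Mest, GRCm38.p6, chr6:30737800-30737999, plus strand: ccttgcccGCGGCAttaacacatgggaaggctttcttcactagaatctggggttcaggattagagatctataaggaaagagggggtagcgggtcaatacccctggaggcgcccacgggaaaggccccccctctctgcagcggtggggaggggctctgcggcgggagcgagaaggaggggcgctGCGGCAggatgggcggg
The hexamer occurred 1 time in the Plagl1 stretch and 2 times in the Mest stretch shown. It occurred in 6.69% of the 32851 stretches of this length ahead of all RefSeq starts. The hexamer holds the letter pair CG, which occurred 15 and 12 times in the Plagl1 and Mest stretches against a median of 4 over all stretches. The 6.69% is therefore not a like background, and no enrichment is read from it. The stretch of another Mest start, at chr6:30733256-30733455, had 0 matches. Of the members, 8 had such a stretch in the table (15 in all, of which 4 held a match), and Meg3 was the other member with a match. The 4 belong to 3 members, since a further Mest stretch, at chr6:30737803-30738002, overlaps the one shown and holds the same hexamers. H19 and Cdkn1c are named only.

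Of the 10 members, 8 had enough counts to be kept, among 15330 genes fitted in all. In the fit of all libraries with edgeR (quasi-likelihood test, Benjamini-Hochberg adjusted p under 0.05), 6 of the 8 differed between PSCs and S100GFP+ cells, where 47.0% of all genes differed. Of these 1 was higher and 5 were lower in PSCs, against 22.9% and 24.1% of all genes. Against NG2DsRed+ cells 6 differed, where 44.0% of all genes did, again 1 higher and 5 lower in PSCs, against 20.9% and 23.1%. Between S100GFP+ and NG2DsRed+ cells 3 differed, where 33.3% of all genes did, with 0 higher and 3 lower in S100GFP+ cells, against 18.1% and 15.2%. The 2 populations compared did not overlap in any library for 3 of the 8 members between PSCs and S100GFP+ cells (15.5% of all genes), for 2 between PSCs and NG2DsRed+ cells (13.9%) and for 0 between S100GFP+ and NG2DsRed+ cells (11.6%). The 6 against NG2DsRed+ cells became 5 without any of 9 single libraries, when Mest dropped out (PSC 6, 23 or 31 and NG2DsRed+ 2, 7, 13, 15, 21 or 26). Because these contrasts were known when the members were chosen, nothing is read from the counts. The median log2 fold change over the 8 members was -1.51 for PSCs over S100GFP+ cells, -1.36 for PSCs over NG2DsRed+ cells and -0.38 for S100GFP+ over NG2DsRed+ cells, beside 0.04, 0.02 and -0.02 over all genes. In sorted bulk samples, fewer cells of a type and less RNA per cell cannot be told apart.

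**Figure D1:**
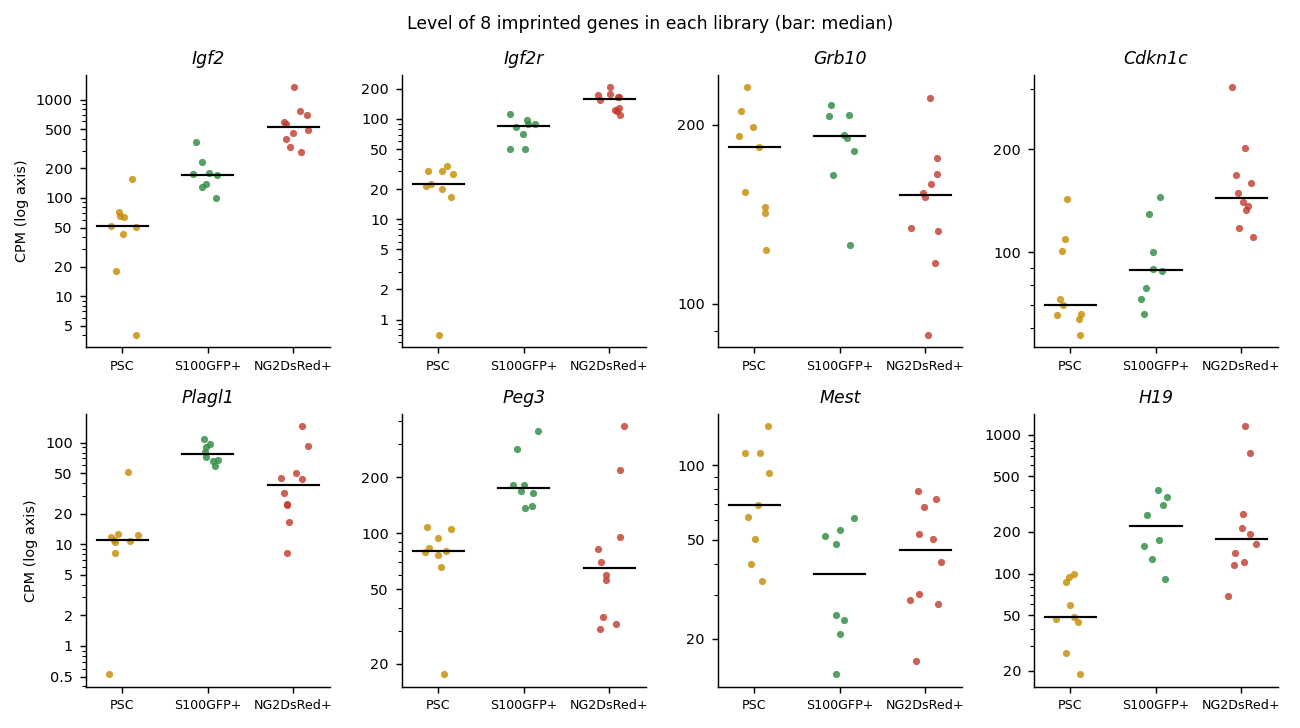
Level of the 8 members that passed the filter, in CPM on a log axis, with 1 point per library and a bar at the median of each cell type (9 PSC, 8 S100GFP+ and 10 NG2DsRed+ libraries). Igf2 and Igf2r are ordered from PSCs to NG2DsRed+ cells, with all PSC libraries below all NG2DsRed+ libraries, Mest is highest in PSCs, and Grb10 overlaps across the 3 populations.

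Igf2 (ENSMUSG00000048583, chr7:142650766-142666816, minus strand) was lowest in PSCs and highest in NG2DsRed+ cells. PSC libraries had from 4.03 to 157 CPM with a median of 52.4 and a mean of 58.5 ± 43.2 (SD, n = 9). S100GFP+ libraries had from 101 to 369 CPM with a median of 172 and a mean of 186 ± 83.6 (n = 8). In the NG2DsRed+ libraries the range was 294 to 1345 CPM, the median 525 and the mean 594 ± 305 (n = 10). Every PSC library was below every NG2DsRed+ library, and 8 of the 9 PSC libraries were also below the lowest S100GFP+ library, the exception being library 31. The fitted level was 10.2-fold lower in PSCs than in NG2DsRed+ cells (log2 fold change -3.34, SE 0.42) and 3.19-fold lower than in S100GFP+ cells (-1.67, SE 0.41), and S100GFP+ cells were lower than NG2DsRed+ cells by the same fold (-1.67, SE 0.41). Without PSC library 31 the first became -3.68 (SE 0.41), and without NG2DsRed+ libraries 28 and 35 it became -2.98 (SE 0.41). The annotated gene Gm49394 shares 62.8% of the exon bases of Igf2 on the same strand and has no row of its own in the table, so counts of Igf2 can include reads from it.

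Igf2r (ENSMUSG00000023830, chr17:12682406-12769664, minus strand), the receptor that clears IGF2 and is read mainly from the maternal copy in mice, followed the same order of populations. Its lowest, median and highest PSC values were 0.701, 22.6 and 34.2 CPM, with a mean of 22.7 ± 10.1 (n = 9). In S100GFP+ libraries they were 49.8, 85.6 and 112 CPM, with a mean of 80.2 ± 22.1 (n = 8). NG2DsRed+ libraries had 109, 160 and 209 CPM, with a mean of 152 ± 31.5 (n = 10). No PSC library reached any library of the other populations, whereas 1 of the 8 S100GFP+ libraries exceeded the lowest NG2DsRed+ library. The lowest PSC value rested on 4 counts, in library 18. PSCs were 6.71-fold lower than NG2DsRed+ cells (log2 fold change -2.75, SE 0.32) and 3.53-fold lower than S100GFP+ cells (-1.82, SE 0.32), and without library 18 these were -2.51 (SE 0.18) and -1.61 (SE 0.18). S100GFP+ cells were 1.90-fold lower than NG2DsRed+ cells (-0.93, SE 0.31).

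The ligand and its clearance receptor thus shared an order, and the other IGF genes can be set beside them. Igf1, which encodes the second IGF ligand and is not imprinted, was lower in PSCs (41.4 CPM) than in S100GFP+ cells (371 CPM, log2 fold change -3.16, SE 0.29, edgeR adjusted p = 1.95e-10) and NG2DsRed+ cells (104 CPM, -1.33, SE 0.26, adjusted p = 0.000107). Igf1r, the signalling receptor, had 102, 77.6 and 87.2 CPM in PSCs, S100GFP+ and NG2DsRed+ cells and was higher in PSCs than in S100GFP+ cells (0.40, SE 0.16, edgeR adjusted p = 0.0447), a call that other settings ended, as given with the IGF receptors below.

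H19 (ENSMUSG00000000031, chr7:142575529-142578143, minus strand) was lower in PSCs than in both other populations. The PSC libraries had 18.8 to 99.3 CPM, a median of 49.0 and a mean of 58.6 ± 29.1 (n = 9). S100GFP+ libraries had 91.3 to 399 CPM, a median of 220 and a mean of 236 ± 114 (n = 8). NG2DsRed+ libraries had 69.4 to 1149 CPM, a median of 179 and a mean of 317 ± 349 (n = 10). The PSC range overlapped both others at its upper end, and the spread among NG2DsRed+ libraries came largely from libraries 28 and 35, at 740 and 1149 CPM, while the other 8 reached at most 269. PSCs were 4.02-fold lower than S100GFP+ cells (log2 fold change -2.01, SE 0.47) and 5.41-fold lower than NG2DsRed+ cells (-2.44, SE 0.46). Without libraries 28 and 35 the second was -1.37 (SE 0.33), and the difference of S100GFP+ from NG2DsRed+ cells went from -0.43 (SE 0.45) to 0.59 (SE 0.34). The order of those populations for H19 therefore depended on the pair of libraries.

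Dlk1 and Meg3 form another imprinted pair on chromosome 12. Dlk1 (ENSMUSG00000040856, chr12:109452823-109463336, plus strand), a paternally expressed gene for a membrane protein of the Delta family, was listed at 0 counts in all 27 libraries, out of 191508596 counts on genes, which allows up to 3 counts or 0.0157 CPM. Meg3 (ENSMUSG00000021268, chr12:109541001-109571726, plus strand), a maternally expressed long noncoding RNA, had 34 counts over all libraries, 1 in PSCs, 16 in S100GFP+ and 17 in NG2DsRed+ cells, and at most 10 in any library. Neither passed the filter. Farther along the same cluster and strand, Rian had 67 counts in all, but Mirg, a host of microRNAs, had 1211. Mirg was at 1.39 ± 1.06 CPM in PSCs, 12.6 ± 3.07 in S100GFP+ cells and 7.48 ± 4.84 in NG2DsRed+ cells, lower in PSCs than in each (log2 fold changes -3.15, SE 0.46, edgeR adjusted p = 1.52e-06, and -2.40, SE 0.44, adjusted p = 4.81e-05). B830012L14Rik, a noncoding gene between Rian and Mirg that was named after its values were seen, had 1268 counts and was lower in PSCs too (-3.35, SE 0.52, edgeR adjusted p = 3.41e-06, and -2.90, SE 0.50, adjusted p = 1.89e-05). Rtl1, the paternally expressed gene of the same interval, was listed at 0. The annotation used for counting is not stated in the sources at hand, so the near absence of Dlk1 and Meg3 counts is stated for the table and not for the cells. Of 7 listed genes of this cluster and its surroundings 3 were tested, of which Mirg was lower and Begain higher in PSCs than in S100GFP+ cells (5.37 against 1.47 CPM, edgeR adjusted p = 0.00296), Mirg was lower and 0 were higher than in NG2DsRed+ cells (0 also at an unadjusted p under 0.05 and by DESeq2), and Wdr25 passed in neither comparison (adjusted p = 0.331 and 0.125). Lars2, Gm23935 and Gm15564 together took between 3.64% and 40.0% of a library, and with this share as a term in the fit Wdr25 was higher in PSCs than in NG2DsRed+ cells (0.85, edgeR adjusted p = 0.0341). Without PSC library 12, 1 was higher than in NG2DsRed+ cells. Against S100GFP+ cells 3 were lower by DESeq2 with genes that edgeR had not kept, and 2 without the filter. Among all genes 22.9% were higher and 24.1% lower in PSCs than in S100GFP+ cells, and 20.9% and 23.1% than in NG2DsRed+ cells.

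Plagl1 (ENSMUSG00000019817, chr10:13060504-13131694, plus strand), a paternally expressed zinc finger transcription factor known to act on Igf2, H19 and other imprinted genes, was highest in S100GFP+ cells. PSC libraries had 0.53 to 51.1 CPM, a median of 11.0 and a mean of 14.4 ± 14.3 (n = 9). S100GFP+ libraries had 58.8 to 110 CPM, a median of 77.1 and a mean of 80.4 ± 17.6 (n = 8). NG2DsRed+ libraries had 8.24 to 145 CPM, a median of 38.1 and a mean of 48.4 ± 41.4 (n = 10). All PSC libraries were below all S100GFP+ libraries, and apart from library 31 at 51.1 CPM no PSC library exceeded 12.7 CPM. Library 18 had 3 counts of Plagl1. PSCs were 5.6-fold lower than S100GFP+ cells (log2 fold change -2.49, SE 0.49) and 3.37-fold lower than NG2DsRed+ cells (-1.75, SE 0.46). Without library 31 these were -3.03 (SE 0.46) and -2.30 (SE 0.43), and without NG2DsRed+ libraries 28 and 35 the second was -1.03 (SE 0.42). S100GFP+ over NG2DsRed+ cells was 0.73 (SE 0.46), and 1.42 (SE 0.43) without those 2 libraries.

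Peg3 (ENSMUSG00000002265, chr7:6703892-6730431, minus strand), another paternally expressed zinc finger gene, also stood highest in S100GFP+ cells. The lowest, median and highest values were 17.5, 80.6 and 109 CPM in PSCs (mean 79.1 ± 26.9, n = 9). They were 137, 175 and 356 CPM in S100GFP+ cells (mean 202 ± 77.2, n = 8). They were 30.7, 65.3 and 376 CPM in NG2DsRed+ cells (mean 106 ± 110, n = 10). The PSC and S100GFP+ libraries did not overlap, and PSCs were 2.55-fold lower (log2 fold change -1.35, SE 0.41). PSCs and NG2DsRed+ cells overlapped over most of their range, and the log2 fold change of -0.42 (SE 0.39) became 0.53 (SE 0.29) without NG2DsRed+ libraries 28 and 35, at 219 and 376 CPM. S100GFP+ over NG2DsRed+ cells was 0.93 (SE 0.40), and 1.83 (SE 0.30) without these libraries.

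Mest (ENSMUSG00000051855, chr6:30723547-30748465, plus strand), a paternally expressed gene for a protein of the alpha/beta hydrolase fold, was the member with higher levels in PSCs. PSC libraries had 34.1 to 143 CPM, a median of 68.8 and a mean of 79.5 ± 37.6 (n = 9). In S100GFP+ libraries the range was 14.4 to 61.3 CPM, the median 36.6 and the mean 37.5 ± 18.2 (n = 8). In NG2DsRed+ libraries it was 16.4 to 78.8 CPM, with a median of 45.6 and a mean of 46.7 ± 21.4 (n = 10). The ranges overlapped, with 6 of 9 PSC libraries above every S100GFP+ library and 4 of 9 above every NG2DsRed+ library. PSCs were 2.12-fold higher than S100GFP+ cells (log2 fold change 1.09, SE 0.33) and 1.70-fold higher than NG2DsRed+ cells (0.77, SE 0.31). With single libraries left out the second ranged from 0.62 to 0.92. Copg2 runs on the opposite strand and shares 23.1% of the exon bases of Mest. It had 20.4, 17.6 and 17.9 CPM in PSCs, S100GFP+ and NG2DsRed+ cells, and neither PSC comparison passed (edgeR adjusted p = 0.492 and 0.530).

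Cdkn1c (ENSMUSG00000037664, chr7:143458339-143461050, minus strand), a maternally expressed inhibitor of cyclin-dependent kinases, was highest in NG2DsRed+ cells. PSC libraries had 57.1 to 143 CPM, a median of 69.9 and a mean of 83.1 ± 28.6 (n = 9). S100GFP+ libraries had 66.0 to 144 CPM, a median of 88.8 and a mean of 96.1 ± 27.6 (n = 8). NG2DsRed+ libraries had 111 to 304 CPM, a median of 144 and a mean of 162 ± 56.5 (n = 10). PSCs and S100GFP+ cells overlapped almost wholly (log2 fold change -0.21, SE 0.21, with limits of -0.62 and 0.20 at 95%). Against NG2DsRed+ cells PSCs were 1.95-fold lower (-0.96, SE 0.20) and S100GFP+ cells 1.69-fold lower (-0.75, SE 0.21). These became -0.70 (SE 0.19) and -0.54 (SE 0.20) without libraries 28 and 35.

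Grb10 (ENSMUSG00000020176, chr11:11930508-12038683, minus strand), an adaptor that dampens insulin and IGF receptor signalling, had the smallest log2 fold changes of the 8 members in both PSC comparisons. It had 123 to 232 CPM in PSCs with a median of 183 and a mean of 176 ± 36.1 (n = 9). It had 125 to 216 CPM in S100GFP+ cells with a median of 191 and a mean of 186 ± 29.3 (n = 8). It had 88.6 to 222 CPM in NG2DsRed+ cells with a median of 153 and a mean of 150 ± 35.8 (n = 10). The 3 ranges lay over each other. The log2 fold changes were -0.08 (SE 0.16) for PSCs over S100GFP+ cells, 0.23 (SE 0.15) for PSCs over NG2DsRed+ cells and 0.31 (SE 0.15) for S100GFP+ over NG2DsRed+ cells, and their 95% limits reached from -0.39 to 0.23, from -0.07 to 0.52 and from 0.00 to 0.61.

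**Figure D2:**
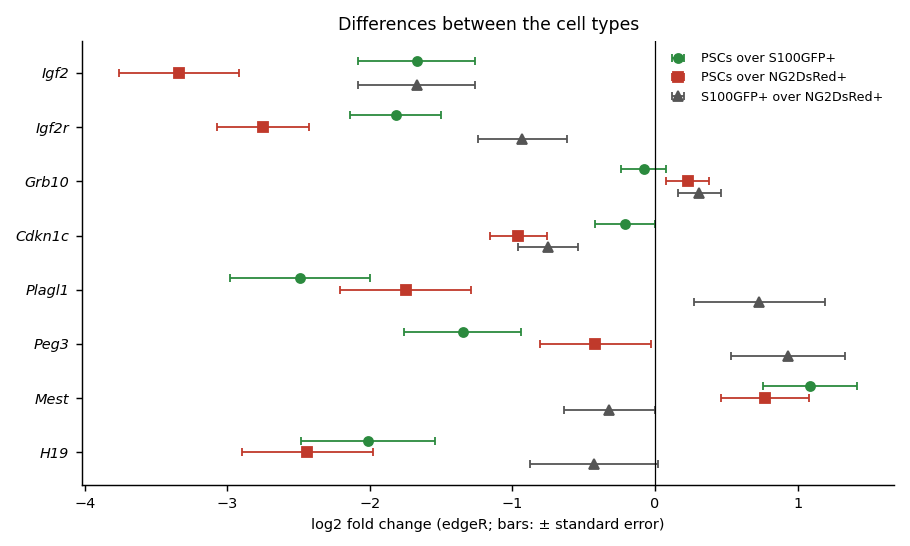
Log2 fold changes of the 8 members between cell types, from the edgeR fit of all 27 libraries, with bars of 1 standard error. Igf2, Igf2r, Plagl1, H19, Peg3 and Cdkn1c lie to the left of 0 in both PSC comparisons. Among these, Peg3 against NG2DsRed+ cells (-0.42, SE 0.39) and Cdkn1c against S100GFP+ cells (-0.21, SE 0.21) lie nearest to 0. Mest lies to the right in both, and Grb10 stays within 0.31 of 0.

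Levels of different genes can be compared only per length, here as CPM per kilobase of exon. In PSCs Cdkn1c had the highest level per kilobase (40.7 ± 14.0), followed by H19 (23.8 ± 11.8), Mest (20.2 ± 9.52), Grb10 (19.3 ± 3.98), Igf2 (10.2 ± 7.55), Peg3 (5.94 ± 2.02), Igf2r (2.44 ± 1.08) and Plagl1 (1.84 ± 1.82). H19, Mest and Grb10 differed by less than their spread there, as did Igf2r and Plagl1. In NG2DsRed+ cells H19 (129 ± 142), Igf2 (104 ± 53.3) and Cdkn1c (79.4 ± 27.7) had the highest means per kilobase and overlapped within their spread, and Grb10 (16.5 ± 3.94), Igf2r (16.4 ± 3.39), Mest (11.8 ± 5.43), Peg3 (7.95 ± 8.21) and Plagl1 (6.19 ± 5.29) followed. In S100GFP+ cells H19 stood highest (95.9 ± 46.3), then Cdkn1c (47.1 ± 13.5) and Igf2 (32.6 ± 14.6). Without NG2DsRed+ libraries 28 and 35, H19 was at 65.3 ± 25.6 and Igf2 at 85.1 ± 27.3 CPM per kilobase (n = 8), so the order of these members there depended on the pair of libraries.

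Members varied together in some libraries. NG2DsRed+ library 35 was the highest of its population in 6 of the 8 members, and library 28 was among the 2 highest in 3 of them, H19, Peg3 and Plagl1. The same libraries had the highest fibroblast marker sums, as given above, and their pericyte marker sums were the lowest, 7124 and 7740 CPM against 9674 to 15607 in the other 8. PSC library 18 was the lowest of its population in 4 members, Igf2, Igf2r, Plagl1 and Peg3, and it stood outside the other PSC libraries in the marker sums of muscle fibres (1191 CPM against 112 to 574), pericytes (1403 against 782 to 1238) and endothelium (86.2 against 153 to 492), but inside them in those of fibroblasts (1562 CPM) and of the Schwann lineage (2525 CPM). It held 5334916 counts, the fewest of the PSC libraries. PSC library 31 was the highest in 4 members, Igf2, Igf2r, Plagl1 and Grb10. The part of these markers or of depth in the members' levels was not tested.

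**Figure D3:**
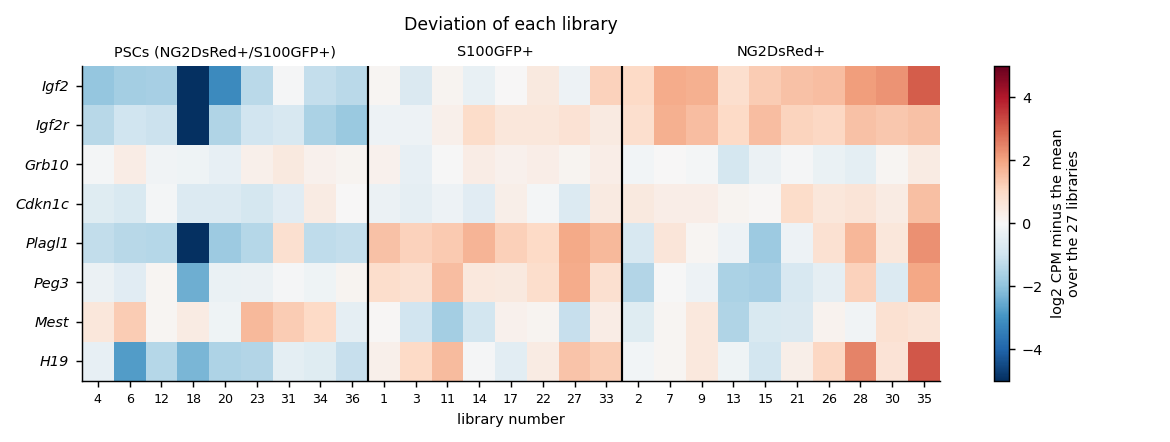
Log2 CPM of the 8 members minus each gene's mean over the 27 libraries, 1 column per library, grouped by cell type (color scale from -5 to 5). Igf2, Igf2r and H19 are blue (below the mean) in all PSC columns and Plagl1 in all but library 31, the deepest blue of Igf2, Igf2r and Plagl1 is in library 18 and that of H19 in library 6, and NG2DsRed+ library 35 is red in all 8 rows.

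**Figure D4:**
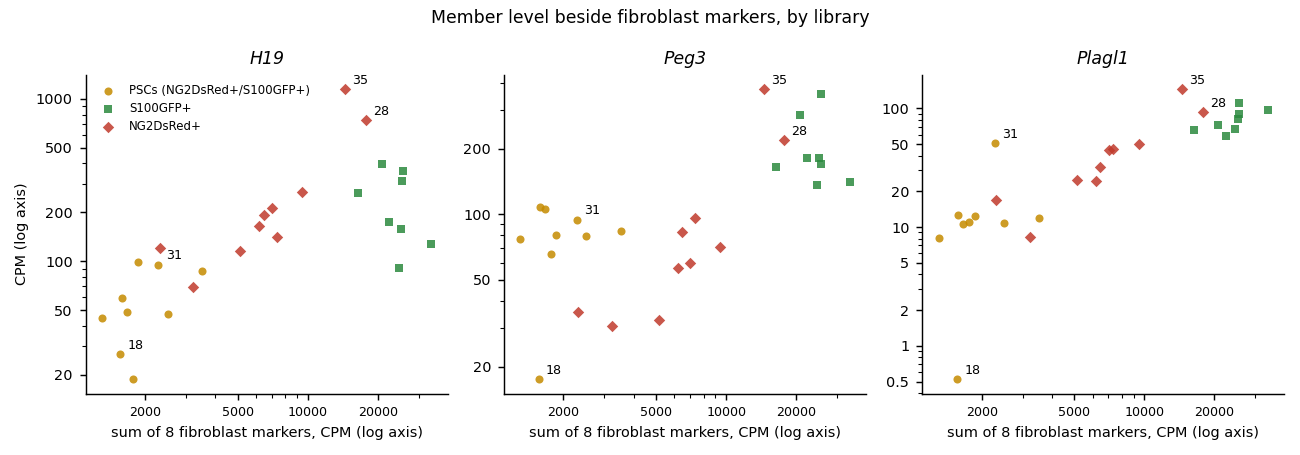
CPM of H19, Peg3 and Plagl1 against the sum of 8 fibroblast markers in CPM, both on log axes, 1 point per library. NG2DsRed+ libraries 28 and 35 lie highest on both axes within their population, and the S100GFP+ libraries lie at marker sums from 16363 to 33975 CPM.

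The members were chosen by comparing cell types, and the spread among libraries within a cell type is a separate measure. In all, 8 relations between pairs of members were planned within PSCs and within NG2DsRed+ cells. None was planned or computed within S100GFP+ cells, because earlier results of these data had set some of their libraries apart. The 4 with Dlk1 could not be computed, since Dlk1 was at 0, and p-values were adjusted over the remaining 4. Within NG2DsRed+ cells H19 and Igf2, which share enhancers, varied together on the log2 CPM scale (n = 10, Pearson r = 0.82, permutation p = 0.00504, adjusted 0.0202, and Spearman rho = 0.82, permutation p = 0.00544, adjusted 0.0218). Without libraries 28 and 35, the farthest from the median in H19, r was 0.58 (n = 8, exact permutation p = 0.128), and after the log2 fibroblast marker sum was regressed out of both genes r was 0.50 (permutation p = 0.142). The relation was therefore not past the threshold without these libraries. With the share of Lars2, Gm23935 and Gm15564 regressed out instead, r was 0.96 (unadjusted permutation p = 2e-05). That p is the smallest that 100000 permutations can give. Within PSCs the same pair gave r = 0.55 (n = 9, exact permutation p = 0.155, adjusted 0.155) and rho = 0.52 (exact p = 0.162, adjusted 0.178), and r = 0.89 over the 7 libraries left without 4 and 6, the farthest from the median.

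Igf2 and Igf2r within PSCs gave r = 0.87 (n = 9, exact permutation p = 0.0374, adjusted 0.0748) and rho = 0.50 (exact p = 0.178, adjusted 0.178). Without libraries 18 and 31 r was 0.07 over 7 libraries, so the relation rested on these. Within NG2DsRed+ cells the pair gave r = 0.55 (n = 10, permutation p = 0.0933, adjusted 0.124) and rho = 0.53 (permutation p = 0.123, adjusted 0.178), with r = 0.55 over 8 libraries when 13 and 35 were left out.

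**Figure D5:**
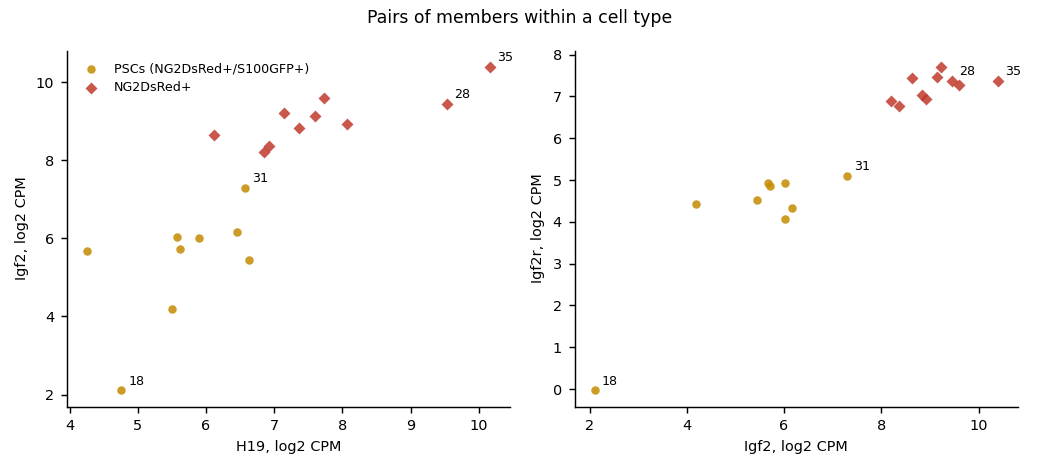
Log2 CPM of H19 against Igf2 and of Igf2 against Igf2r in the 9 PSC and 10 NG2DsRed+ libraries, 1 point per library. PSC library 18 lies alone at the lower left of the Igf2 and Igf2r panel, and NG2DsRed+ libraries 28 and 35 lie at the right of the H19 and Igf2 panel.

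Over all 27 libraries, the genes with the most similar log2 CPM were sought for each member, with Pearson's r as the measure and no test, and populations and library makeup are shared by these points. For Igf2 they were Ror1 (r = 0.949), a receptor tyrosine kinase-like gene with 7.81, 17.3 and 58.6 CPM in PSCs, S100GFP+ and NG2DsRed+ cells, and Snai2 (0.947), a transcription factor gene. For Igf2r they were Esyt2 (0.976) and Map3k5 (0.952). Plagl1 was closest to Tgfbi (0.944), an extracellular matrix gene with 46.2, 312 and 200 CPM in the same order, and Nrk (0.943). Peg3 was closest to Vcan (0.904), a matrix proteoglycan gene with 58.1, 151 and 55.7 CPM, and Gm10115 (0.861). H19 was closest to Il33 (0.873) and to Lum (0.864), which is also on the fibroblast marker list. Cdkn1c was closest to Nrep (0.821) and Tsc22d1 (0.800), and Mest to Nid2 (0.822), a basement membrane gene with 243, 39.2 and 102 CPM, and Spred1 (0.821). For Grb10 no gene exceeded Slc23a1 (0.697) and Lman1 (0.677). No member was among the 2 genes closest to another member.

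Genes that are often placed with the members in an imprinted gene network were tested next, and 9 of the 10 listed passed the filter. Against S100GFP+ cells 1 was higher and 4 were lower in PSCs (median log2 fold change -0.62, beside 0.04 over all genes), and against NG2DsRed+ cells 2 were higher and 4 lower (median -0.98, beside 0.02). Without PSC library 18 the number lower than in S100GFP+ cells was 6. Of all genes 22.9% were higher and 24.1% lower in PSCs than in S100GFP+ cells, and 20.9% and 23.1% than in NG2DsRed+ cells. Dcn, a collagen-binding proteoglycan gene that is also on the fibroblast list, was lower in PSCs (328 CPM) than in S100GFP+ cells (4141 CPM, log2 fold change -3.66, SE 0.34, edgeR adjusted p = 2.87e-10) and NG2DsRed+ cells (2344 CPM, -2.84, SE 0.32, adjusted p = 1.77e-08). Asb4 was lower in PSCs as well (1.46 CPM against 7.79 and 11.1, edgeR adjusted p = 5.05e-05 and 2.74e-06). Slc38a4, an amino acid transporter gene, was at 1.51, 16.9 and 2.78 CPM and was lower in PSCs than in S100GFP+ cells (adjusted p = 1.29e-05). Gatm, a gene of creatine synthesis, was at 2.37, 1.68 and 0.236 CPM and was higher in PSCs than in NG2DsRed+ cells (edgeR adjusted p = 2.72e-06). The gene higher in both comparisons was Sgce, named after its values were seen, at 170, 77.1 and 90.2 CPM (log2 fold changes 1.14 and 0.92, edgeR adjusted p = 0.00125 and 0.00477), and with the share of Lars2, Gm23935 and Gm15564 as a term these were 0.39 and 0.35 (adjusted p = 0.051 and 0.0564). The fibroblast markers themselves were lower in PSCs in 8 of 8 cases in both comparisons, and their part in the network's values was not tested.

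In the cluster of chromosome 7 that holds H19, Igf2 and Cdkn1c, 10 of 15 listed neighbours passed the filter. Against S100GFP+ cells 5 were lower and 3 higher in PSCs, and without S100GFP+ libraries 14, 17 and 22 these counts were 4 and 0. Only 1 was higher without PSC library 36 or without S100GFP+ library 1, 17, 22 or 33 alone. Against NG2DsRed+ cells 5 were lower and 0 higher (0 higher also at an unadjusted p under 0.05 and by DESeq2). The median log2 fold changes of these neighbours were -0.48 and -0.73. Beside their counts, 24.1% of all genes were lower and 22.9% higher in PSCs than in S100GFP+ cells, and 23.1% and 20.9% than in NG2DsRed+ cells. Kcnq1, a potassium channel gene, was at 0.809, 16.4 and 5.23 CPM in PSCs, S100GFP+ and NG2DsRed+ cells (log2 fold changes in PSCs -4.33, SE 0.50, and -2.68, SE 0.47, edgeR adjusted p = 2.34e-08 and 2.58e-05). Slc22a18 followed at 0.143, 3.31 and 2.20 CPM (edgeR adjusted p = 9.21e-09 and 1.01e-07), and Osbpl5 at 24.2, 33.8 and 51.8 CPM (adjusted p = 0.0262 and 3.83e-06). Tspan32, a tetraspanin gene of blood cells, was at 0.723, 18.7 and 0.658 CPM and was lower in PSCs than in S100GFP+ cells (edgeR adjusted p = 3.48e-07), where leukocyte markers were higher as well. Kcnq1ot1, the noncoding RNA that lies antisense inside Kcnq1, acts on Cdkn1c from the paternal copy and is named here after its values were seen, was at 89.5, 126 and 121 CPM and passed in neither comparison (edgeR adjusted p = 0.138 and 0.174). With the share of Lars2, Gm23935 and Gm15564 as a term Kcnq1ot1 was lower in PSCs in both (-1.10 and -0.91, adjusted p = 7.32e-06 and 3.92e-05). Osbpl5 against S100GFP+ cells did not pass with that term (-0.31, adjusted p = 0.174), without the filter (0.0795), in a fit of the compared cell types alone (0.0643), without S100GFP+ libraries 14, 17 and 22 (0.318), or without PSC library 12, 23 or 36 or S100GFP+ library 14 or 22 alone.

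Among 8 tested neighbours of Peg3, Mest, Plagl1, Grb10 and Igf2r, of 12 listed, 2 were lower and 1 higher in PSCs than in S100GFP+ cells, and 3 were lower and 0 higher than in NG2DsRed+ cells (1 higher at an unadjusted p under 0.05 and 1 by DESeq2). The median log2 fold changes were -0.85 and -1.24. The counts stand beside 24.1% of all genes lower and 22.9% higher than in S100GFP+ cells, and 23.1% and 20.9% than in NG2DsRed+ cells. Airn, the antisense RNA that starts inside Igf2r and silences it on the paternal copy, was at 4.99, 7.09 and 22.7 CPM, lower in PSCs than in NG2DsRed+ cells (log2 fold change -2.16, SE 0.31, edgeR adjusted p = 1.51e-06) and not past the threshold against S100GFP+ cells (-0.49, SE 0.32, adjusted p = 0.217), where it passed with the share of Lars2, Gm23935 and Gm15564 as a term (-1.01, adjusted p = 0.0105). It shares 0 exon bases with Igf2r, but which strand setting the counting used is not stated in the sources at hand. Phactr2, next to Plagl1, was at 35.8, 82.9 and 114 CPM (log2 fold changes in PSCs -1.21 and -1.67, SE 0.12 for both, edgeR adjusted p = 1.13e-09 and 1.3e-12). Zim1, next to Peg3, was at 7.70, 32.9 and 15.3 CPM and was lower in PSCs than in S100GFP+ cells (adjusted p = 0.00553). Slc22a3, next to Igf2r, was at 2.61, 0.857 and 9.38 CPM, higher in PSCs than in S100GFP+ cells and lower than in NG2DsRed+ cells (edgeR adjusted p = 0.0395 and 0.00746). The first did not pass with the share as a term (log2 fold change 0.72 against 1.58, adjusted p = 0.398) or without S100GFP+ libraries 14, 17 and 22 (adjusted p = 0.0881). Against NG2DsRed+ cells Zim1 passed without PSC library 18 (-1.59, edgeR adjusted p = 0.0219). The number higher than in S100GFP+ cells became 0 without PSC library 34 or 36 or without S100GFP+ library 1, 3, 14, 17, 27 or 33, the number lower became 4 without PSC library 36, and the number higher than in NG2DsRed+ cells became 1 without any of 7 single libraries (NG2DsRed+ 2 or 35 and PSC 6, 20, 31, 34 or 36).

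Of 22 other imprinted genes examined, 17 were tested. Against S100GFP+ cells 6 were higher in PSCs, beside 22.9% of all genes, and 0 lower (1 lower at an unadjusted p under 0.05 and 0 by DESeq2 over the same genes), with a median log2 fold change of 0.66 beside 0.04 over all genes. Against NG2DsRed+ cells 4 were higher, beside 20.9% of all genes, and 2 lower, with a median of 0.09 beside 0.02. Without PSC library 18 the counts were 9 and 2 against S100GFP+ cells and 6 and 3 against NG2DsRed+ cells, the number lower than in S100GFP+ cells was 2 without S100GFP+ libraries 14, 17 and 22 and by DESeq2 with genes that edgeR had not kept, and it was 1 without S100GFP+ library 17, 22 or 33 alone. Zdbf2, a paternally expressed zinc finger gene, was at 38.2 CPM in PSCs against 6.49 and 4.58 (log2 fold changes 2.56, SE 0.34, and 3.05, SE 0.32, edgeR adjusted p = 3.46e-07 and 5.84e-09). Nnat, which encodes the membrane proteolipid neuronatin, was at 14.9 CPM in PSCs against 3.35 and 0.968 (2.14, SE 0.49, and 3.92, SE 0.50, edgeR adjusted p = 0.000618 and 1.63e-07). Ppp1r9a, which encodes an actin-binding protein of neurons, was at 48.8 CPM against 18.1 and 28.7 (adjusted p = 8.78e-07 and 0.00113). Herc3 was at 2.35, 3.11 and 8.72 CPM and was lower in PSCs than in NG2DsRed+ cells (edgeR adjusted p = 0.000233).

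Of 10 genes that set or keep imprints, 8 were tested. Of these, 3 were higher in PSCs than in S100GFP+ cells and 0 lower (0 also at an unadjusted p under 0.05 and by DESeq2 over the same genes), while 4 were higher and 1 lower than in NG2DsRed+ cells. The number lower than in S100GFP+ cells was 1 by DESeq2 with genes that edgeR had not kept, and 2 without the filter. Ctcf, which encodes the factor that binds the unmethylated H19 control region, was at 140, 64.6 and 94.7 CPM (log2 fold changes in PSCs 1.12, SE 0.20, and 0.56, SE 0.19, edgeR adjusted p = 3.5e-05 and 0.0146), and the second did not pass with the share of Lars2, Gm23935 and Gm15564 as a term (0.16, adjusted p = 0.279). Zfp445, a zinc finger gene of imprint maintenance, was at 74.1, 47.0 and 46.7 CPM (edgeR adjusted p = 0.0152 and 0.0092), but neither passed with that term (log2 fold changes 0.22 and 0.24, adjusted p = 0.252 and 0.191), nor the first without S100GFP+ libraries 14, 17 and 22 (0.103). Dnmt1, the maintenance DNA methyltransferase gene, was at 34.2, 20.5 and 20.1 CPM (adjusted p = 0.00195 and 0.00069), and Uhrf1, its partner, at 20.1, 11.4 and 2.38 CPM (edgeR adjusted p = 0.194 and 1.69e-05). Dnmt1 and Uhrf1 are also known to be high in dividing cells, and the sum of 5 cell cycle markers was 157 to 880 CPM in PSCs, 53.0 to 436 in S100GFP+ cells and 12.6 to 198 in NG2DsRed+ cells. Its part in these differences was not tested. The gene lower in PSCs than in NG2DsRed+ cells was Zfp57 (0.605 against 2.26 CPM, -1.84, SE 0.57, edgeR adjusted p = 0.0088), named after its values were seen, and it did not pass without NG2DsRed+ library 9 or 30 or with the share as a term (-1.37, adjusted p = 0.0632). The median log2 fold changes of these genes were 0.46 and 0.32. Their counts stand beside 22.9% of all genes higher and 24.1% lower than in S100GFP+ cells, and 20.9% and 23.1% than in NG2DsRed+ cells.

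The paralogs of the members behaved differently from each other. Of 6 tested of 9 listed, 3 were lower and 1 higher in PSCs than in S100GFP+ cells, and 2 were lower and 0 higher than in NG2DsRed+ cells (1 higher at an unadjusted p under 0.05 and 0 by DESeq2, and 1 without any of 9 single libraries, namely NG2DsRed+ 2, 28 or 35, PSC 6, 18, 23, 31 or 34 and S100GFP+ 11). The median log2 fold changes were -0.65 and 0.12. Over all genes 24.1% were lower and 22.9% higher in PSCs than in S100GFP+ cells, and 23.1% and 20.9% than in NG2DsRed+ cells. Cdkn1a, a stress-responsive kinase inhibitor related to Cdkn1c, was at 114, 411 and 285 CPM and was lower in PSCs in both comparisons (log2 fold changes -1.85, SE 0.23, and -1.32, SE 0.22, edgeR adjusted p = 1.01e-07 and 1.29e-05). Cdkn1b, the remaining gene of this family, was at 45.8, 25.1 and 34.8 CPM and was higher in PSCs than in S100GFP+ cells (0.87, SE 0.18, edgeR adjusted p = 0.000271). Plagl2 was at 8.13, 16.2 and 7.91 CPM and was lower in PSCs than in S100GFP+ cells (adjusted p = 0.0265, and 0.933 against NG2DsRed+ cells), a call lost in a fit of the compared cell types alone (0.054), with the share as a term (0.0621) and without PSC library 12, 20 or 36 or S100GFP+ library 11, 27 or 33. Of the 4 tested genes for signalling receptors of the IGFs and proteins that bind IGF2 mRNA, 0 passed between PSCs and NG2DsRed+ cells in either direction (0 also at an unadjusted p under 0.05 and by DESeq2), and 1 was higher without PSC library 18. Against S100GFP+ cells 1 was higher, Igf1r as given above, and 2 were lower, with median log2 fold changes of -1.29 and 0.03 in the 2 comparisons. Igf1r did not pass by DESeq2 (adjusted p = 0.0607), with the DESeq2 size factors in edgeR (0.0546), without the filter (0.056), in a fit of the compared cell types alone (0.116), or without any of 9 single libraries (NG2DsRed+ 7 or 30, PSC 6, 23 or 31 and S100GFP+ 1, 3, 27 or 33). Igf2bp2 and Igf2bp3, which are known from fetal growth, were lower in PSCs (3.03 and 1.44 CPM) than in S100GFP+ cells (22.8 and 9.88 CPM, edgeR adjusted p = 7.21e-06 and 0.00018). Insr, the insulin receptor gene, was at 33.1, 29.8 and 37.2 CPM and passed in neither comparison (adjusted p = 0.652 and 0.616).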

How the data were processed

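RNA of the sorted cells was amplified with a SMART-Seq v4 kit, per the labels. Reads were trimmed by the authors (ea-utils, Btrim), and the submitters' processing notes name HISAT2 for alignment, the build GRCm38 and HTSeq for counting. The deposited values are whole-number counts per gene, not normalized. The sources at hand state no tool versions, no annotation and no strand setting. Table columns were matched to samples through the library number, and 9 of the labelled libraries were not analysed here. No 2 libraries of a cell type agreed within sampling noise (the lowest ratio of chi-square to its degrees of freedom was 8.10). GENCODE M21 named 99.72% of the identifiers.

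The counts were analysed in R 4.3.3 with edgeR 4.0.16 (TMM, filterByExpr with a minimum count of 10, 15330 genes, 1 quasi-likelihood fit of the 3 cell types, Benjamini-Hochberg adjustment at 0.05). Levels are TMM CPM, with a prior count of 2 on the log2 scale, and 95% limits are the log2 fold change ± 1.96 SE. Floors are 3 counts and cover counting error only. Correlations had two-sided permutation tests, exact with 9 libraries or fewer and otherwise with 100000 permutations. On simulated counts of 15003 genes with 200 changed 2-fold, the fit recovered 40% for PSCs against S100GFP+ cells with 4 false calls, and 49% against NG2DsRed+ cells with 2. In the data 47.0% and 44.0% of all genes were called in these comparisons, far more than were changed in the simulation. Its rates therefore do not carry over to them.

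The members and gene lists were chosen with earlier results of these data known. The genes named are the members, up to 4 tested genes per list with the largest F over the 3 cell types, the 2 genes most like each member, genes that overlap a member, and Cspg4 and S100b. The lists were an imprinted gene network, neighbours of the members in 3 groups, other imprinted genes, genes that set or keep imprints, paralogs, and IGF receptors with IGF2 mRNA-binding proteins. Besides the marker sums in the text, the medians over PSC, S100GFP+ and NG2DsRed+ libraries were 2575, 2715 and 371 CPM for myelinating Schwann markers, 22.5, 6.06 and 17.8 for satellite cells, 304, 255 and 320 for muscle fibres, and 246, 92.0 and 2151 for endothelium. Alternatives were DESeq2 1.42.0 (Wald test), its size factors in edgeR, no filter, only the cell types compared, a term for the share of Lars2, Gm23935 and Gm15564 (3.64% to 40.0% of a library), a prior count of 0.5 for correlations, and leaving out libraries. Leaving out NG2DsRed+ libraries 28 and 35 or PSC library 18, and regressing out the fibroblast marker sum, were chosen after seeing the data. The choice to leave out S100GFP+ libraries 14, 17 and 22 came from earlier results of these data.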

Additional observations from a re-analysis of the deposited data

Results flagged for a closer look

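The lowest and highest libraries of each population were compared with the others for the 8 members that passed the filter, which gives 24 groups of values. The comparison was made on CPM and not on the log2 scale, so high values stand apart more readily. How many groups chance alone would set apart was not tested. In 5 a library stood far from the rest of its population. Igf2 was at 157 CPM in PSC library 31, where the next PSC library had 71.6, and at 1345 CPM in NG2DsRed+ library 35, where the next had 774. Cdkn1c was at 304 CPM in NG2DsRed+ library 35, with 201 in the next. Plagl1 was at 51.1 CPM in PSC library 31, with 12.7 in the next. Peg3 was at 17.5 CPM in PSC library 18, with 65.8 in the next lowest. Library 31 also had the highest cartilage and tendon marker sum of the PSC libraries, 4529 CPM against at most 89.9, and library 35 a fibroblast marker sum of 14495 CPM against at most 9435 in the 8 NG2DsRed+ libraries other than 28. The part of these in these values was not tested.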

How the results depend on the processing

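No paired analysis was possible because the library numbers never repeat between cell types and the labels tie no libraries to a shared mouse. Of the 840 values of the members' log2 fold changes under the alternatives, 836 moved by less than the spread between replicates and 4 by more, and 7 changed sign, none of them for a difference past the threshold. The count of members past the threshold dropped Mest against NG2DsRed+ cells without the filter (0.76) and without any of the 9 libraries given above. For S100GFP+ over NG2DsRed+ cells it took in Peg3 without NG2DsRed+ library 28 (1.14) or 35 (1.43), without PSC library 18 (0.95) and with the share as a term (1.14), Plagl1 without NG2DsRed+ library 35 (1.12), and Grb10 without library 35 (0.42, and 0.37 for PSCs over NG2DsRed+ cells). The number of genes called went from 7198 to 16556 for PSCs against S100GFP+ cells and from 5099 to 10586 for S100GFP+ against NG2DsRed+ cells without the filter on low counts, where more genes were tested, and otherwise stayed within 1.5 times. By DESeq2, 4157 genes were higher and 2255 lower in S100GFP+ than in NG2DsRed+ cells, against 2771 and 2328 by edgeR. Leaving out single libraries gave 6825 to 7918, 6315 to 7412 and 4617 to 5940 calls in the 3 comparisons.

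Leaving out single libraries gave Pearson's r from 0.37 to 0.79 for H19 and Igf2 within PSCs. The unadjusted permutation p of this pair was under 0.05 only without library 6. For Igf2 and Igf2r within PSCs r was from 0.40 to 0.93. With all libraries the permutation p of that pair was 0.0374 unadjusted and 0.0748 adjusted. The unadjusted p was not under 0.05 without library 4, 18, 20 or 31. Within NG2DsRed+ cells r was from 0.65 to 0.86 for H19 and Igf2 and from 0.44 to 0.65 for Igf2 and Igf2r. Without PSC library 18 the second was 0.40. The third was 0.58 without NG2DsRed+ libraries 28 and 35 and 0.50 on residuals of the fibroblast marker sum. On residuals of the share of Lars2, Gm23935 and Gm15564 the third was 0.96 and the fourth 0.69. Causes were not tested. Marker genes reversed for PSCs over S100GFP+ cells without S100GFP+ libraries 14, 17 and 22 (Pecam1 1.71, Cdh5 2.48, Kdr 1.89, Cldn5 2.14) and for Col2a1 by DESeq2 (-1.87 and, against NG2DsRed+ cells, -0.98) and without PSC library 31, with single libraries left out giving -1.97 to 5.17 and -1.13 to 6.09. At these depths genes at a few CPM rest on few counts.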
